A study of Mus musculus with 11 samples.

Results

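The genes described here are the matrix metalloproteinases (MMPs) and their tissue inhibitors (TIMPs) that the count table of a mouse eye experiment holds under the symbols Mmp2, Mmp3, Mmp9, Mmp14, Mmp15, Timp1, Timp2, Timp3 and Timp4. These are 9 of the 14602 genes in the table, 5 proteases and 4 inhibitors. They were picked by name and not by a cut-off on their values, but earlier results of these data were known. The RNA came from RPE/choroid, the retinal pigment epithelium together with the vascular coat beneath it, of C57BL/6J mice with no engineered allele named in the labels. The mice were 9 months old at the start and 12 months old at collection, and 6 libraries came from naïve controls that had no laser and 5 from mice given the 2RT nanosecond laser 3 months before collection. The neural retina had been removed from the eye cups, the RNA was pre-amplified with a SmartSeq v4 kit and libraries were made with NexteraXT.

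MMPs are zinc-dependent enzymes, made as inactive proforms, that cut collagens, laminins, elastin and other components of the extracellular matrix. TIMPs bind the active site of MMPs and block it. In the eye, the balance between them is known for its part in the turnover of Bruch's membrane, the layered matrix between the RPE and the capillaries of the choroid. The RPE secretes TIMP3, which binds to that matrix and stays there, and mutations in the human gene cause Sorsby fundus dystrophy, a macular disease with thickening of Bruch's membrane.

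Promoter sequences of 7 of the 9 genes were found in the RefSeq table by symbol. The stretch before the start site is given for Mmp3, the protease with the widest spread between libraries per length, for Mmp14, the membrane-type protease with the highest level, and for Timp3, the inhibitor with the highest level. Capitals mark each match to TGANTCA (the binding motif of AP-1), to GGGCGG (the GC box) or to TATAAA (the TATA box) on either strand. Each sequence is written on the strand of its gene in build GRCm38.p6, and bases that GENCODE M21 counts as exon are left out.
Mmp3 (chr9:7445572-7445821, plus strand): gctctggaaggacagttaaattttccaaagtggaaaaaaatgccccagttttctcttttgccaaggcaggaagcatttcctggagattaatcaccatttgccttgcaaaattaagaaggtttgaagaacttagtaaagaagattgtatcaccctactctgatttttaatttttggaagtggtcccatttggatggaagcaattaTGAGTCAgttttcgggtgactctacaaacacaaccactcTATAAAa
Mmp14 (chr14:54431348-54431597, plus strand): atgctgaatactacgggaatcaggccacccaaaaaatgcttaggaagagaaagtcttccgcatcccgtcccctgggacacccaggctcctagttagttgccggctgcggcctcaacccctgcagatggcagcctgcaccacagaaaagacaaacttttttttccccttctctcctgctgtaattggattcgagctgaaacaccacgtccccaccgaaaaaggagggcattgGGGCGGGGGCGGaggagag
Timp3 (chr10:86300162-86300371, plus strand): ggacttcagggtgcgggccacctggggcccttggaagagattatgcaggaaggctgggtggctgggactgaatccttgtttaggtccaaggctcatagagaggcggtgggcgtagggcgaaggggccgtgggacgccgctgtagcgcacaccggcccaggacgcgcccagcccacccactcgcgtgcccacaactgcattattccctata
Over the 250 bases before the RefSeq start, the Mmp3 window has a GC content of 37.6%, with an AP-1 motif that begins 46 bases before the start and a TATA box match that begins 7 bases before it. The Mmp14 window has a GC content of 55.2% and 2 GC boxes that abut, 19 and 13 bases before the start. The Timp3 and Timp2 windows have GC contents of 65.6% and 68.0% and 1 GC box each, 15 and 37 bases before the RefSeq start, and the one of Timp3 lies in bases that GENCODE counts as exon. Mmp15 and Timp1 had 1 GC box each, and Timp4 had no match to any of these motifs. Of 32851 promoters scanned over the same length, 6.75% held the AP-1 motif, 32.7% the GC box and 12.4% the TATA box. A match describes the letters only.

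Total counts ranged from 25700881 to 38755994 per library. All 10 RPE markers were in the table, with a summed level of 95019 to 132330 CPM (counts scaled to library size) in controls and 77915 to 128839 CPM in laser treated libraries. All 8 markers of the neural retina were present as well, at 5433 to 20338 CPM in controls and 3581 to 18190 CPM in laser treated libraries. Library sizes for CPM were adjusted by TMM. The comparison used edgeR's quasi-likelihood test on the whole table, with Benjamini-Hochberg adjustment over all 14602 genes. Each library is labelled as a separate sample, and the p-values measure the spread between these samples.

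Of all 14602 genes, 0 had an adjusted p under 0.05 in edgeR's quasi-likelihood test, which is 0% of the table. An unadjusted p under 0.05 was found for 2325 genes, or 15.9% of the table (1203 higher and 1122 lower, against 1591 and 550 with limma on the log2 TPM of the transcript files), while DESeq2 called 547 genes at an adjusted p under 0.05. Of the 9 MMP and TIMP genes, 0 had an adjusted p under 0.05 with edgeR, and 0 of the 3 (Mmp14, Timp2 and Timp3) for which DESeq2 gave one. The unadjusted p was under 0.05 for 2 of the 9, Mmp2 and Timp2, both higher in laser treated libraries, where 8.24% of the table was called in that direction. The mean was higher in the laser treated group for 8 of the 9 genes, against 48.5% of the table with a log2 fold change above 0. Their median log2 fold change was 0.58, and that of all genes was -0.02. For 0 of the 9 genes were all laser treated libraries above all controls, against 1.4% of the table. Across all genes, log2 fold changes rose with the GC content of the transcripts (Spearman's rho of 0.46 over genes, which are not independent replicates). The transcripts of the 9 genes had GC contents of 45.9% to 59.6%.

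The inhibitors Timp3 and Timp2 were by far the most abundant of the 9 genes. Per length of exon, on the scale of counts per kilobase of exon and per library size as in CPM (RPKM), the mean level over the 11 libraries was 660 ± 93.4 (SD, n = 11) for Timp3 and 179 ± 27.2 (SD, n = 11) for Timp2. Timp3 ranked 43rd of all genes in the table on this scale and Timp2 190th. The protease with the highest level was Mmp3, at 8.99 ± 10.1 RPKM (SD, n = 11). It was followed by Mmp14 at 3.49 ± 1.54, Timp1 at 2.27 ± 1.73, Mmp15 at 1.67 ± 0.572 and Mmp2 at 1.56 ± 0.630 RPKM. Timp4 and Mmp9 had the lowest levels, 0.432 ± 0.323 and 0.427 ± 0.391 RPKM (SD, n = 11 for each gene). In this order the ranges over libraries did not overlap between Timp3 and Timp2, nor between Timp2 and Mmp3. From Mmp3 down, the ranges of all neighbours overlapped, and Mmp3 was above Mmp14 in 8 of 11 libraries. On the TPM scale of the transcript files Timp1 had a mean of 0.470 and came after Mmp15 and Mmp2, and with the longest transcript as length Timp3 had 1138 and Mmp14 6.42 RPKM.

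**Figure D1:**
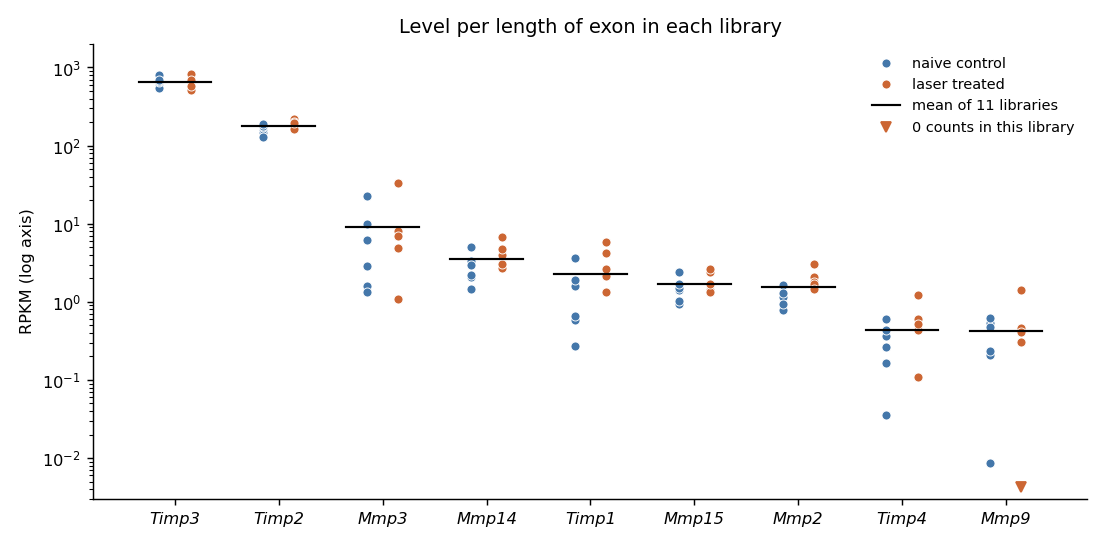
Level of each gene per length of exon in RPKM, on a log axis, with 1 point for each of 6 naïve control and 5 laser treated libraries and a line at the mean of the 11. Timp3 and Timp2 stand apart from the other genes, and the triangle marks the laser treated library in which Mmp9 had 0 counts.

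Timp3 made up most of the RNA of this gene family. Its share of the summed RPKM of the 9 genes was 78.7% ± 1.41 (SD, n = 6) in controls and 74.6% ± 2.79 (SD, n = 5) in laser treated libraries. Timp2 accounted for 19.5% ± 1.76 (SD, n = 6) and 22.7% ± 1.68 (SD, n = 5). The 5 proteases together accounted for 1.53% ± 0.724 (SD, n = 6) and 2.20% ± 1.44 (SD, n = 5), with ranges that overlapped. The ratio of the summed inhibitors to the summed proteases ranged from 35.5 to 116 in controls and from 20.5 to 93.1 in laser treated libraries. The ratio of Timp3 to Timp2 ranged from 3.59 to 4.87 in controls. In the laser treated libraries it was 3.84, 3.02, 3.15, 3.54 and 2.97 in order of replicate number, so that the highest of them lay within the range of controls and the other 4 below it. RPKM of bulk tissue cannot tell fewer cells of a type from less RNA per cell, and this holds for every level given here.

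Mmp2 encodes gelatinase A, which cuts denatured collagen and the type IV collagen of basement membranes. The gene spans bases 92827291 to 92853420 of chromosome 8 in GRCm38. In controls it had a lowest level of 2.66, a median of 4.09 and a highest level of 5.50 CPM. The laser treated libraries had 7.06, 10.4, 6.05, 5.73 and 4.87 CPM in order of replicate number, so that 4 of 5 lay above every control. The mean was 3.97 ± 1.00 CPM (SD, n = 6) in controls and 6.81 ± 2.13 CPM (SD, n = 5) in laser treated libraries. The log2 fold change was 0.78 ± 0.33 (SE), with an adjusted p = 0.278 in edgeR's quasi-likelihood test. An exact two-sided permutation test of log2 CPM over all 462 assignments of the libraries gave an unadjusted p = 0.00649. This test was run on each of the 9 genes, with unadjusted p from this value up to 0.972 for Mmp9. Removal of the trend of each library's counts on GC content left a log2 fold change of 0.55 with adjusted p = 0.696 in edgeR's quasi-likelihood test. The first line of the transcript files labels 5 libraries R1 and 6 libraries R2, a label whose meaning is not given in the sources used here. The difference in mean log2 CPM, laser treated minus control, was 1.27 within R1 and 0.39 within R2. Between 26.4% and 69.1% of the assembled bases of Mmp2 lay in its introns.

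Mmp9 encodes gelatinase B, which is known from neutrophils and macrophages and has much the same substrates. It was near the limit of detection, with 0.0302, 1.25 and 2.22 CPM as the lowest, median and highest control. After laser treatment the libraries had 0, 5.08, 1.63, 1.09 and 1.44 CPM. In the library at 0, a count of 0 allows up to 3 counts, or 0.0971 CPM, as far as counting error goes. The groups overlapped in part, with 1 laser treated library above every control. The log2 fold change was 0.58 ± 1.09 (SE; adjusted p = 0.862, edgeR's quasi-likelihood test), which became -0.24 without laser treated library 2. The difference was -1.79 within R1 and 1.51 within R2 on the log2 CPM scale. Of 7 neutrophil markers, 2 were in the table, S100a8 and S100a9, with a summed level of 1.87 to 5.62 CPM in controls and 0.0544 to 3.13 CPM in laser treated libraries. Of 8 macrophage markers, all were in the table, and 0 had an unadjusted p under 0.05, against 15.9% of all genes.

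Mmp3 encodes stromelysin-1, which cuts proteoglycans, laminin and fibronectin and can activate the proforms of other MMPs. Among the genes with counts in every library, only Timp4, at 7 to 250 counts (34.0-fold in CPM), had a wider fold range than Mmp3, at 69 to 2208. The lowest, median and highest controls had 2.38, 8.24 and 40.5 CPM. After laser treatment the 5 libraries had 8.74, 60.0, 1.97, 14.6 and 12.6 CPM, so that 1 library of each group stood well above the others and the lowest library of all was a laser treated one. The range from lowest to highest was 30.5-fold. The mean was 13.4 ± 14.6 CPM (SD, n = 6) in controls and 19.6 ± 23.1 CPM (SD, n = 5) in laser treated libraries. The log2 fold change was 0.55 ± 0.84 (SE; adjusted p = 0.825, edgeR's quasi-likelihood test), and it was -0.50 without laser treated library 2.

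Mmp14 and Mmp15 encode membrane-type MMPs, which stay anchored in the plasma membrane. The product of Mmp14 activates the proform of MMP2 in a complex that holds TIMP2. Mmp14 had 8.69, 15.4 and 30.1 CPM as the lowest, median and highest control. The values after laser treatment were 16.1, 18.3, 24.0, 28.5 and 40.1 CPM, all above the control median, with 1 above every control. Its means were 17.0 ± 7.52 CPM (SD, n = 6) and 25.4 ± 9.56 CPM (SD, n = 5), and its log2 fold change 0.58 ± 0.32 (SE; adjusted p = 0.398, edgeR's quasi-likelihood test). Mmp15 had 5.01, 7.88 and 12.9 CPM as the lowest, median and highest control and 7.61, 13.0, 7.13, 14.2 and 9.11 CPM in the laser treated libraries. Its groups overlapped over most of their range, with a log2 fold change of 0.34 ± 0.31 (SE; adjusted p = 0.656, same edgeR test) that was 0.05 once the GC trend had been removed.

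**Figure D2:**
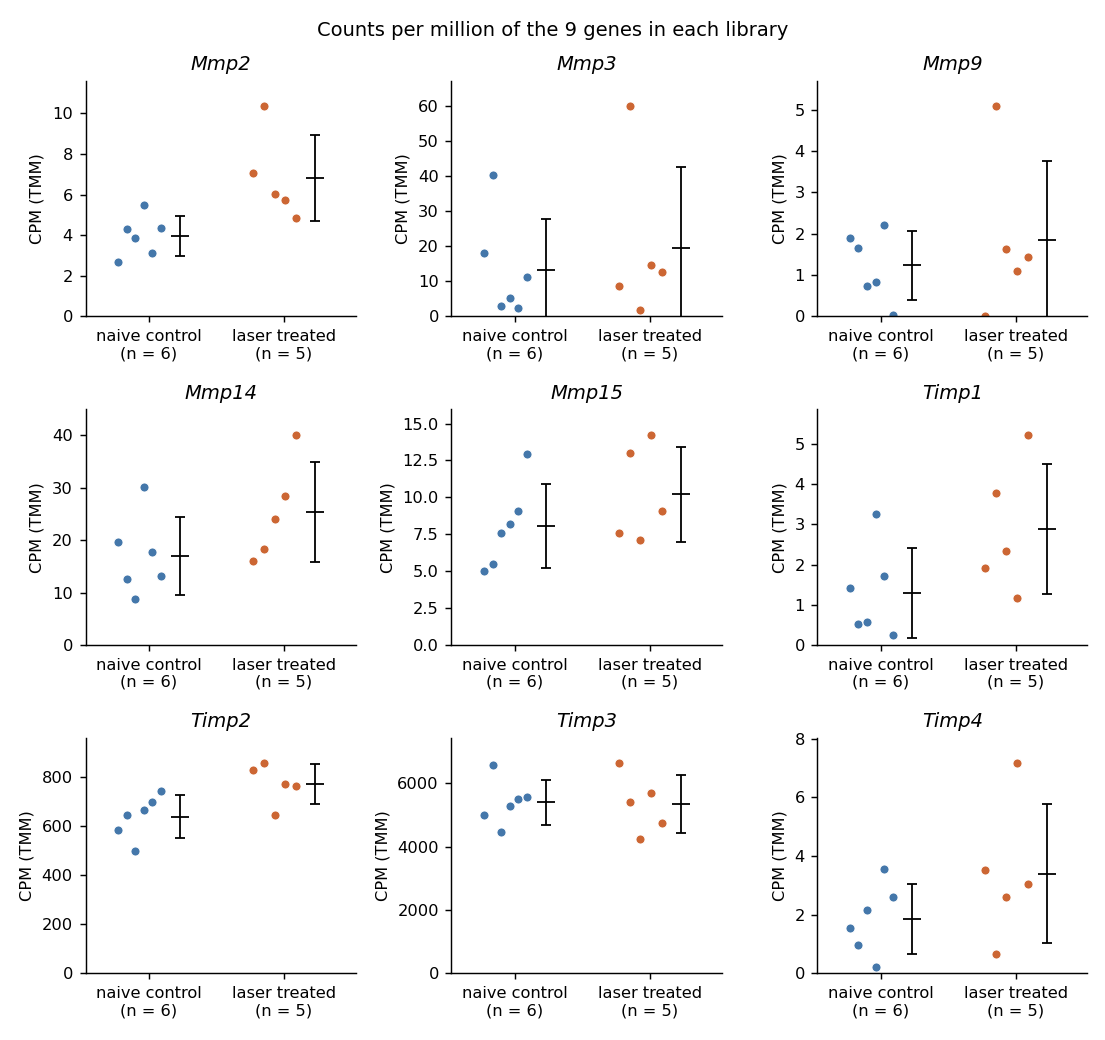
Level of each gene in CPM, with 1 point per library (6 naïve control, 5 laser treated, in order of replicate number) and the mean with its SD beside the points, cut off at 0. Of the 5 laser treated libraries, 4 lie above every control for Mmp2 and 4 for Timp2, and the Timp3 groups cover nearly the same range.

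Timp2 encodes the inhibitor that both blocks MMP2 and, at the cell surface, takes part in its activation by MMP14. The gene lies on chromosome 11 from 118301069 to 118355740, on the minus strand. Controls had 499, 655 and 742 CPM as the lowest, median and highest values. Laser treated libraries had 826, 855, 644, 771 and 764 CPM, so that 4 of 5 lay above every control and replicate 3 below the control median. The mean was 638 ± 86.2 CPM (SD, n = 6) in controls and 772 ± 81.0 CPM (SD, n = 5) in laser treated libraries, which is 1.21-fold. The log2 fold change was 0.27 ± 0.12 (SE; adjusted p = 0.286, edgeR's quasi-likelihood test), and the exact two-sided permutation test of log2 CPM gave an unadjusted p = 0.0346. Its adjusted p from DESeq2 was 0.153. After removal of the GC trend the log2 fold change was 0.11 with adjusted p = 0.863 in edgeR's quasi-likelihood test. The difference in mean log2 CPM was 0.55 within R1 and 0.05 within R2.

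Timp3 lies on chromosome 10 from 86300372 to 86349506. It had 4468, 5386 and 6564 CPM as the lowest, median and highest control, and 6628, 5404, 4249, 5701 and 4748 CPM in the laser treated libraries. The means were 5393 ± 699 CPM (SD, n = 6) and 5346 ± 913 CPM (SD, n = 5). The log2 fold change was -0.01, with a 95% interval from -0.30 to 0.27 (adjusted p = 0.978, edgeR's quasi-likelihood test), so a change of Timp3 beyond those bounds was not seen in either direction. After removal of the GC trend the log2 fold change was 0.11.

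Timp1 encodes an inhibitor that is secreted by many cells during tissue repair, and Timp4 one that is known from heart and vessels. Timp1 had 0.242, 0.998 and 3.25 CPM as the lowest, median and highest control. Laser treated libraries had 1.91, 3.78, 2.34, 1.17 and 5.23 CPM, all above the control median. Its log2 fold change of 1.16 was the largest of the 9 genes with edgeR, but its standard error was 0.72 (adjusted p = 0.470, edgeR's quasi-likelihood test) at 8 to 174 counts per library. Timp4 had 0.211, 1.86 and 3.55 CPM as the lowest, median and highest control and 3.53, 0.652, 2.60, 7.16 and 3.04 CPM in the laser treated libraries. Its groups overlapped, with a log2 fold change of 0.88 ± 0.71 (SE; adjusted p = 0.608, same edgeR test).

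**Figure D3:**
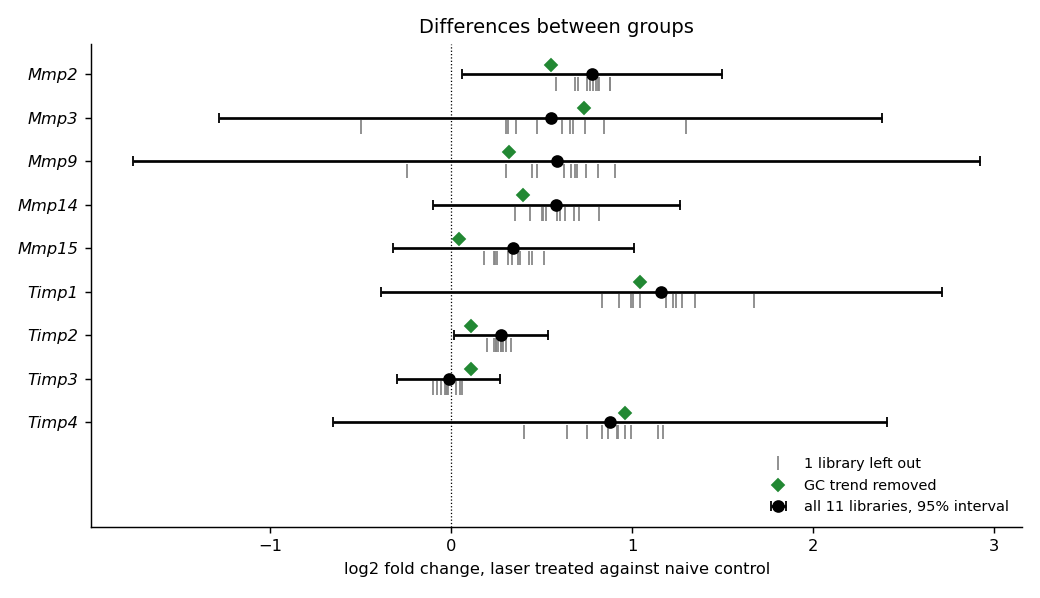
Log2 fold change of each gene, laser treated against naïve control, from edgeR with its 95% interval. Ticks give the value with 1 library left out and diamonds the value after removal of the GC trend. The intervals of Mmp2 and Timp2 lie above 0, the diamonds of both lie nearer to 0 than the full fit, and the ticks of Mmp3, Mmp9 and Timp3 lie on both sides of 0.

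3 of the inhibitors lie inside synapsin genes, which run on the opposite strand. Timp1 lies within Syn1 and shares 0 exon bases with it, Timp4 lies within Syn2 and shares 90 (and within Gm17482, with 0), and Timp3 lies within Syn3 and shares 1733. The SmartSeq and NexteraXT steps do not mark the strand of a read. Syn1 had 59 to 1664 counts per library, Syn2 0 to 433 and Syn3 46 to 220, against 138325 to 204706 counts of Timp3. Syn1 and Syn2 thus had counts of the same order as Timp1 (8 to 174) and Timp4 (7 to 250) or above them, and the part of shared reads in these values was not tested.

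The deposited transcript files hold fragments of 1 exon each, with no spliced transcripts, and give the coverage along each gene. The principal transcripts of the 9 genes have 77 exons, of which 55 are shorter than 200 bp. Of these 55, 0 had fragments in all 11 libraries and 36 had fragments in none. Of the 22 longer exons, 11 had fragments in every library. These 11 exons, and the ratio of first to last exon for Timp2 and Timp3, were compared between groups after their values had been seen, in 13 exact permutation tests, and adjusted p-values are over these 13. Values are the sequenced bases of all fragments that touch the exon, in kilobases scaled to library size as in CPM, so that a fragment that runs on into an intron or a further exon counts whole. The first exon of Timp3, which is 603 bp long with a GC content of 66.2%, had 29.0 ± 6.07 (SD, n = 6) in controls and 42.3 ± 4.78 (SD, n = 5) in laser treated libraries (exact two-sided permutation test, p = 0.00649, adjusted p = 0.0422). In controls it ranged from 19.8 to 37.0, and the laser treated libraries had 43.7, 47.0, 36.8, 46.4 and 37.8. Counting only the bases inside this exon gave 28.1 ± 7.10 (SD, n = 6) and 42.2 ± 4.71 (SD, n = 5). The exact permutation test of these gave an unadjusted p = 0.0108. The last exon of Timp3, 3802 bp long with a GC content of 43.3%, had 676 ± 99.9 (SD, n = 6) and 651 ± 120 (SD, n = 5), with p = 0.673 from the same exact test. Between 0.573% and 19.9% of the assembled bases of Timp3 lay in introns in laser treated libraries, and between 0.301% and 1.17% in controls. With only the bases inside the exon, the last exon had 674 ± 100.2 (SD, n = 6) and 579 ± 171 (SD, n = 5), with p = 0.212 from the same exact test.

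The first exon of Timp3 as a percent of the last was 4.34 ± 0.920 (SD, n = 6) in controls and 6.59 ± 0.784 (SD, n = 5) in laser treated libraries (exact permutation test, p = 0.00649, adjusted p = 0.0422). Among laser treated libraries the values were 5.32, 7.22, 7.25, 6.64 and 6.54 percent, and 4 of 5 lay above the highest control of 5.42 percent. With only the bases inside the exons the percent was 4.22 ± 1.09 (SD, n = 6) and 7.69 ± 1.86 (SD, n = 5), with the same exact p = 0.00649. The group means, control and then laser treated, were 3.77 and 6.27 percent within R1 and 4.90 and 6.81 percent within R2. For Timp2 the first exon, 546 bp long with a GC content of 73.6%, had 2.96 ± 0.665 (SD, n = 6) and 4.14 ± 0.298 (SD, n = 5) kilobases scaled to library size (exact permutation test, p = 0.0108, adjusted p = 0.0469). Counting only the bases inside this exon gave 2.96 ± 0.667 (SD, n = 6) and 4.01 ± 0.562 (SD, n = 5), with an unadjusted p = 0.0346 from the same exact test. The last exon of Timp2, 2828 bp long with a GC content of 50.2%, had 74.5 ± 9.97 (SD, n = 6) and 89.6 ± 9.81 (SD, n = 5), with p = 0.0390 from the same exact test (adjusted p = 0.0764). The first as a percent of the last was 3.95 ± 0.445 (SD, n = 6) and 4.64 ± 0.247 (SD, n = 5), with p = 0.0195 from the same exact test (adjusted p = 0.0633). With only the bases inside the exons the exact p of this percent was 0.0606. The first exons of both genes are richer in GC than the last, and the part of base composition in these values was not tested. The first and last exons of Mmp2 had ratios of group means, laser treated over control, of 1.39 and 0.94 on the log2 scale, each with p = 0.0411 in the exact permutation test (adjusted p = 0.0764). These came from control and laser treated means of 0.0491 and 0.129 for the first exon and 0.292 and 0.561 for the last. With only the bases inside the exons, the first had 0.0491 ± 0.0111 (SD, n = 6) and 0.0960 ± 0.0405 (SD, n = 5). The last had 0.217 ± 0.0959 (SD, n = 6) and 0.318 ± 0.0542 (SD, n = 5), each with an unadjusted exact permutation p = 0.0476.

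**Figure D4:**
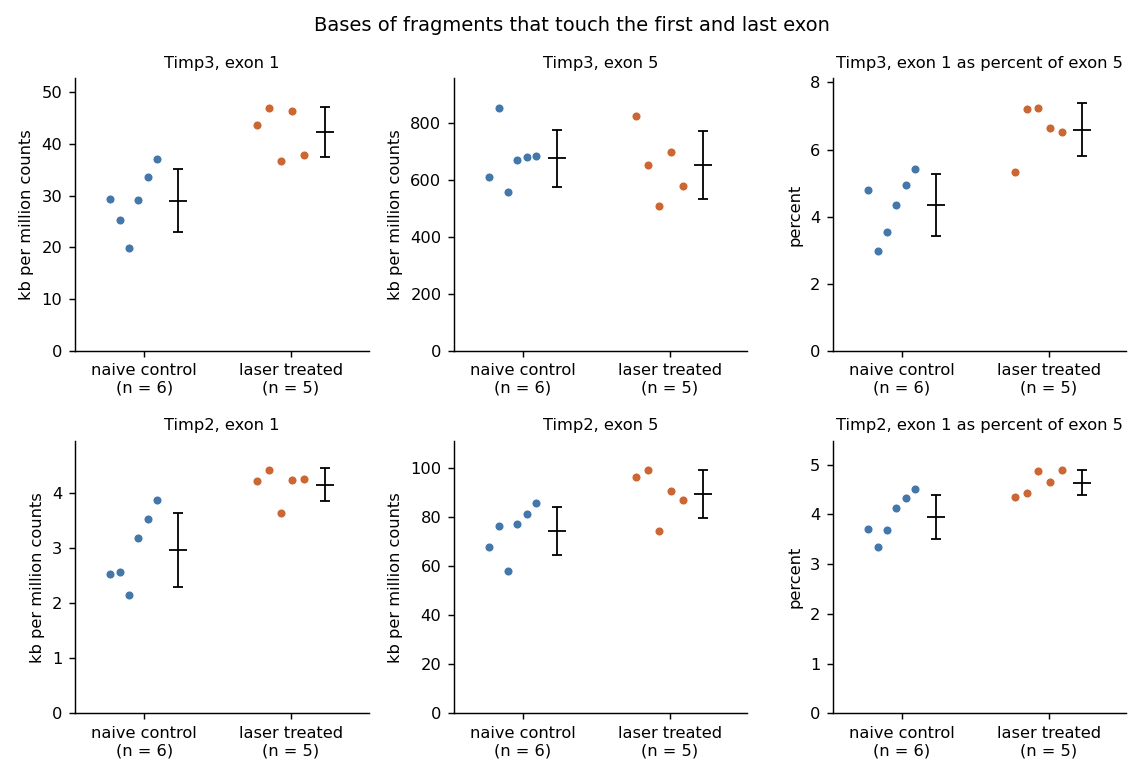
Bases of fragments that touch the first and the last exon of Timp3 and Timp2, in kilobases scaled to library size, and the first as a percent of the last, with 1 point per library and the mean with its SD (6 naïve control, 5 laser treated). The last exon of Timp3 covers nearly the same range in both groups, while 4 of 5 laser treated libraries exceed every control in the percent of its first exon.

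Of 18 further MMP genes, 7 were in the table, and 0 of these had an unadjusted p under 0.05, against 15.9% of all genes. Their highest group mean was 6.12 CPM, for Mmp11 in laser treated libraries. Mmp28 and Mmp23 had the smallest p among those with a positive log2 fold change (0.78 and 0.73) and Mmp12 and Mmp24 among those with a negative one (-0.42 and -0.73), with adjusted p from 0.605 to 0.901 in edgeR's quasi-likelihood test. Mmp12, which encodes macrophage elastase, had 5.27 CPM in controls and 3.94 CPM in laser treated libraries on average.

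Among 13 activators and inducers of MMPs, 11 were in the table, and 3 were higher and 1 lower at an unadjusted p under 0.05, where 8.24% of all genes were higher and 7.68% lower. Plat, tissue plasminogen activator, had 15.2 ± 4.10 CPM (SD, n = 6) in controls and 33.8 ± 16.6 CPM (SD, n = 5) in laser treated libraries. Its log2 fold change was 1.16 ± 0.34 (SE; adjusted p = 0.177, edgeR's quasi-likelihood test). DESeq2 gave an adjusted p = 0.0302 for Plat. Cd151, a tetraspanin, had a log2 fold change of 0.43 (adjusted p = 0.223), and Furin, the protease that activates membrane-type MMPs and was named after its values were seen, of 0.37 (adjusted p = 0.267). The integrin subunit Itgav had means of 378 ± 49.4 (SD, n = 6) and, after laser treatment, 289 ± 67.0 CPM (SD, n = 5), and its log2 fold change was -0.39 (adjusted p = 0.248), which was -0.13 with the GC trend removed and -0.0088 with log2(TPM + 1). For Cd44 the log2 fold change was -0.78 (adjusted p = 0.705). The median log2 fold change of the 11 genes was 0.24.

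Of 10 other inhibitors and clearance receptors, 7 were in the table. Of these, 0 had an unadjusted p under 0.05, against 15.9% of all genes, and the median log2 fold change was 0.10. The endocytic receptor Lrp1 had a log2 fold change of 0.39 (adjusted p = 0.340, edgeR's quasi-likelihood test), the membrane inhibitor Reck of 0.61 (adjusted p = 0.416) and Cd63 of -0.19 (adjusted p = 0.621). All 8 targets and partners of TIMP3 were in the table. Here too 0 had an unadjusted p under 0.05, against the same 15.9% of all genes, and the median log2 fold change was 0.05. The log2 fold changes of those with the smallest p were 1.10 for Adamts4 and 0.37 for Efemp1 with a positive sign, and -0.52 for Adamts5 and -0.02 for Adamts2 with a negative one, with adjusted p from 0.715 to 0.996.

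All 18 matrix genes of Bruch's membrane were in the table, 2 were higher and 0 lower at an unadjusted p under 0.05, where 8.24% and 7.68% of all genes were, and the median log2 fold change was 0.26. Lamb2, a laminin chain of basement membranes, had 31.0 ± 8.41 CPM (SD, n = 6) in controls and 57.0 ± 21.8 CPM (SD, n = 5) in laser treated libraries. Its log2 fold change was 0.88 ± 0.26 (SE; adjusted p = 0.177, edgeR's quasi-likelihood test). Col18a1, which encodes the collagen that releases endostatin, had means of 126 ± 27.2 (SD, n = 6) and 185 ± 29.9 CPM (SD, n = 5) in the same order, and its log2 fold change was 0.55 ± 0.17 (SE; adjusted p = 0.177, same test). DESeq2 gave an adjusted p = 0.0320 for Lamb2 and 0.0404 for Col18a1. For Nid1 the log2 fold change was -0.80 (adjusted p = 0.634) and for Fn1 -0.70 (adjusted p = 0.639).

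Of 15 genes that induce MMP transcription, 10 were in the table, 3 were higher and 0 lower at an unadjusted p under 0.05 (8.24% and 7.68% of all genes), and the median log2 fold change was 0.33. Ets2 had 7.09 ± 1.55 CPM (SD, n = 6) in controls and 14.7 ± 5.33 CPM (SD, n = 5) in laser treated libraries. Its log2 fold change was 1.05 ± 0.28 (SE; adjusted p = 0.174, edgeR's quasi-likelihood test). For Jun, a subunit of AP-1, it was 0.89 ± 0.29 (SE; adjusted p = 0.195), and for Jund, named after its values were seen, 0.37 (adjusted p = 0.287). Fos, another AP-1 subunit, had a log2 fold change of -0.04 (adjusted p = 0.972) and Ets1 of -0.09 (adjusted p = 0.922). Tnf and Il6, cytokines known to induce MMPs, were not among the genes of the table.

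**Figure D5:**
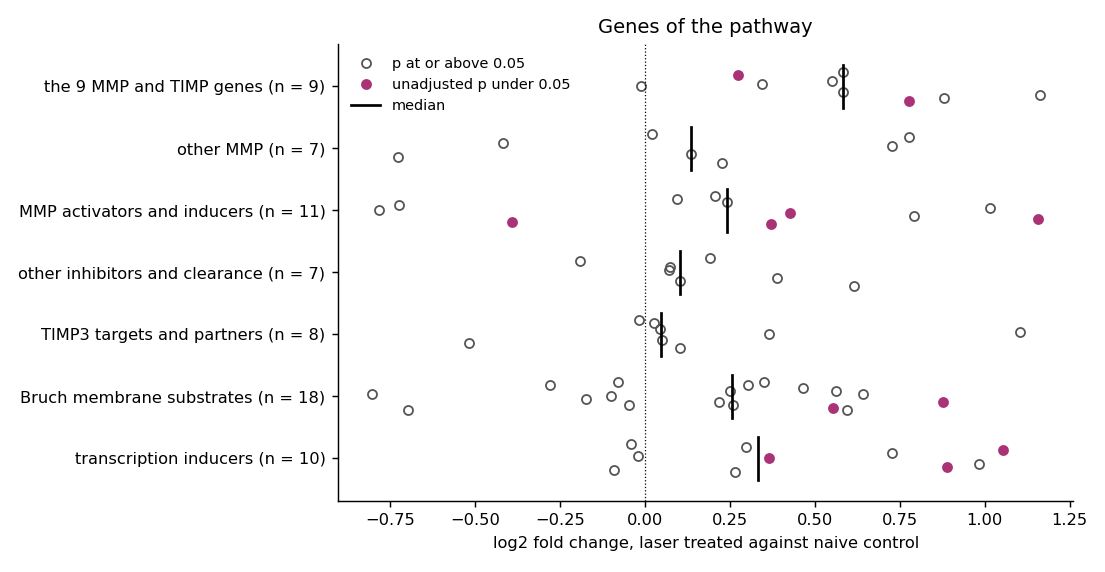
Log2 fold change, laser treated against naïve control, of the 9 MMP and TIMP genes and of the genes of 6 further lists in the table, with filled points at an unadjusted p under 0.05 and a bar at the median. The medians of all 7 lists lie above 0.

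Markers of other cells were read beside these values. Of 8 fibroblast markers, all in the table, 0 had an unadjusted p under 0.05, and their summed level was 89.8 to 529 CPM in controls and 127 to 455 CPM in laser treated libraries. Of the Schwann cell markers reported here, Mbp and Mag were both higher at an unadjusted p under 0.05. Mbp had a log2 fold change of 2.22 (adjusted p = 0.208, edgeR's quasi-likelihood test) and Mag of 3.33 (adjusted p = 0.216), while Pmp22, the most abundant of those reported here, had -0.05 (adjusted p = 0.917) and Prx -1.46 (adjusted p = 0.642). Their part in the differences of Mmp2 and Timp2 was not tested. At the same unadjusted threshold, under which 8.24% of all genes were higher and 7.68% lower, 1 of 5 melanocyte markers in the table (Sox10) was higher. Among blood markers 1 of 4 (listed as Beta-s) was lower, and among RPE markers 1 of 10 (Slc16a8) was higher. Their adjusted p in edgeR's quasi-likelihood test was 0.172 for Sox10, 0.266 for Beta-s and 0.179 for Slc16a8. Endothelial markers (8 in the table), pericyte and smooth muscle markers (7), neural retina markers (8), epidermis or conjunctiva markers (5) and skeletal muscle markers (6) held 0 genes at an unadjusted p under 0.05.

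Across the 11 libraries, 21 relations were tested, those of each gene with the mean z-score of fibroblast markers and of RPE markers and those among Mmp2, Mmp14 and Timp2, and 0 had an adjusted p under 0.05. The smallest p was that of Mmp2 with Timp2 (Pearson's r = 0.67, permutation p = 0.0254, adjusted p = 0.352, Spearman's rho = 0.68 with permutation p = 0.0247 and adjusted p = 0.422). Without the 2 libraries farthest from the median the r was 0.61, and for deviations from the group means it was 0.38. Within R2 the r was -0.13 over 6 libraries and within R1 it was 0.86 over 5. Mmp3 with fibroblast markers had r = 0.63 (permutation p = 0.0391, adjusted p = 0.352, Spearman's rho = 0.59 with permutation p = 0.0603 and adjusted p = 0.422), which was 0.32 without the 2 farthest libraries. Within R2 it was 0.78 and within R1 0.88.

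The genes of the whole table whose log2 CPM followed each member most closely over the 11 libraries had Pearson correlations from 0.87 to 0.97. For Mmp2 these were Clcn2 (0.95), Zfp579 (0.93) and Psmd9 (0.93), for Mmp3 Edn3 (0.91), Lbp (0.90) and Klhl6 (0.89), and for Mmp9 Sh3tc1 (0.97), C1qtnf2 (0.92) and Eltd1 (0.91). For Mmp14 they were Mxra8 (0.96), Bcam (0.95) and Itga5 (0.94), and for Mmp15 Pygo2 (0.93), Tef (0.92) and Cars2 (0.91). Timp1 was followed by Ptger1 (0.88), Zfp618 (0.87) and Scx (0.87), and Timp2 by Naglu (0.96) and Scpep1 (0.95). Timp3 was followed by Gm5069 (0.90), Nln (0.87) and Cpn1 (0.87), and Timp4 by Synrg (0.92), D630044L22Rik (0.91) and Daam2 (0.89). Each list is the top of 14602 genes over libraries that share the group difference and their depth, so these values are given as a description.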

How the data were processed

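RPE/choroidal RNA was sequenced in 6 naïve control and 5 laser treated libraries. The deposited table gives raw counts of 14602 genes, not normalized by the authors, and the submitters' processing notes name bcl2fastq 2.18.0.12, Trim Galore, STAR 2.5.3a, featureCounts 1.5.3, StringTie 1.3.3, edgeR 3.22.3 and the builds mm10 and GRCm38. Whether counting used strand, and the annotation, are not given in the sources used here. The table also holds the authors' log2 fold changes, abundances, test statistics, p-values and FDR, which were not used. The transcript files deposited per library hold StringTie fragments with coverage, FPKM and TPM.

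Counts were compared with edgeR 4.0.16 in R 4.3.3 (TMM, filterByExpr, which removed no gene, robust quasi-likelihood fits, Benjamini-Hochberg adjustment over all genes, threshold 0.05). RPKM used the union of exons in GENCODE M21. Gene lengths were found through the Ensembl identifier for 13045 genes, the symbol for 10 and an older symbol for 1196. Promoter windows came from RefSeq. Fragment bases per exon were coverage times the whole length of every fragment that touches the exon, divided by the normalized library size, and an alternative took only the bases inside the exon. Log2 CPM used a prior count of 1, and correlations 100000 permutations. Other steps ran in Python 3.11.15 (scipy 1.17.1, numpy 2.4.6, pandas 2.3.3). On simulated counts of 14466 genes for this comparison, edgeR called 78% of 200 genes changed by a fold of 4.

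Alternatives were DESeq2 1.42.0, limma 3.58.1 voom, limma on log2 TPM with pseudocounts of 1 and 0.1, other normalizations and filters, a loess GC correction (span 0.3), the label R1 or R2 as a covariate, the replicate number as a block, and each library left out. The exon comparisons and a fit without naïve control 6 and laser treated 2 were added after the data were seen. The genes and lists were chosen with earlier results of these data known. The text names all 9 genes, in each further list the 2 genes with the smallest p in each direction and any gene a count turns on, and for each of the 9 the 3 genes most alike, apart from a few genes that are not reported here. Total counts of 25700881 to 38755994 set the precision, and intervals of counts cover counting error only.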

Additional observations from a re-analysis of the deposited data

Results flagged for a closer look

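Among 22 groups of values examined (the CPM of 9 genes and 2 exon ratios in each of 2 groups), 1 held a library far from the others by Dixon's criterion, which chance alone meets in about 1 of 20 groups. It was Mmp3 in laser treated library 2, at 60.0 CPM, against 1.97 to 14.6 CPM in the rest of its group. The gap was 0.783 of the range of the group, above the critical value of 0.71. Control library 2 had 40.5 CPM of Mmp3, so a high value was seen in both groups. The cause was not tested.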

How the results depend on the processing

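Of 222 values of the 9 genes' log2 fold changes under the alternatives, 209 had the direction reported and 13 the opposite one. Mmp2, Mmp14, Mmp15, Timp1, Timp2 and Timp4 had a positive value under every alternative that gave one. These values ranged from 0.40 to 0.88 for Mmp2, 0.36 to 0.82 for Mmp14 (lowest without laser treated 5), 0.045 to 0.51 for Mmp15 (0.18 without laser treated 4), 0.46 to 1.67 for Timp1, 0.11 to 0.41 for Timp2 and 0.21 to 1.31 for Timp4 (0.40 without laser treated 4). The filter of at least 10 counts in every library removed Mmp9, Timp1 and Timp4 and left 5 higher genes of 6. Mmp9 was -0.54 with voom, -0.17 with the replicate block, -0.41 with the block and the GC trend removed, and -0.47 without naïve control 6 and laser treated 2 together. Mmp3 was -0.52 in that last fit. Timp3 was 0.11 with the GC trend removed, 0.14 with the block in addition and 0.018 in that last fit. With 1 library left out, Mmp3 ranged from -0.50 to 1.298, Mmp9 from -0.24 to 0.90 and Timp3 from -0.10 to 0.059.

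The count of the 9 genes at an unadjusted p under 0.05, which was 2, became 3 with log2 TPM (Timp1 in addition), 1 with voom, 0 with the GC trend removed, 1 without naïve control 6 and laser treated 2, and 0 to 3 with 1 library left out. It was 0 without control 1, control 3, laser treated 1 or laser treated 2. The count of genes with an adjusted p under 0.05 was 547 with DESeq2 (269 higher, 278 lower), 1 with voom, 2 with the 10-count filter, 3 without naïve control 6 and laser treated 2, and 0 to 4 with 1 library left out (4 without laser treated 2). Genes at an unadjusted p were 1188 with the GC trend removed against 2325, and 1591 were higher and 550 lower with log2(TPM + 1) against 1203 and 1122. The share of Timp3 in the summed level was 84.3% with the longest transcript as length, against 76.9%. The labels do not say that the replicate numbers pair the libraries. Same-numbered deviations from the group means correlated at -0.0028 to 0.268, and in 2 of 5 pairs the best partner had the same number. With so few pairs these values cannot settle whether same-numbered libraries share a step. With the number as a replicate block the count of the 9 genes at an unadjusted p was 1, and 0 with the GC trend removed in addition. Both block fits left out control 6, and 0 genes had an adjusted p under 0.05 in them.

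Of 569 values for 23 further genes, 30 were reversed and 536 had the same direction and call. Plat, Lamb2 and Col18a1 passed an adjusted p of 0.05 with DESeq2 alone (0.0302, 0.0320 and 0.0404). Cd63 was 1.51 and 1.53 with log2 TPM at pseudocounts of 1 and 0.1. Efemp1 was -0.067 with voom, -0.074 with the block and -0.12 with the label as covariate, and Mmp24 0.40 with voom. Adamts2 was 0.15 with voom, 0.96 with the block, 0.78 with block and GC removal and 0.12 without both libraries. Ets1 was 0.029 and 0.038 with log2 TPM, 0.015 with the GC trend removed, 0.026 with the block, 0.17 with both and 3.8e-05 without both libraries. With 1 library left out, Cd44 ranged from -1.26 to 0.26, Efemp1 from -0.29 to 0.78, Adamts2 from -0.68 to 0.45, Ets1 from -0.23 to 0.052 and Fos from -0.33 to 0.15. The ratio of first to last exon kept its direction with only the bases inside the exons, where no p was adjusted over the exon tests. The Timp2 ratio had an unadjusted exact permutation p of 0.0606 there. The direction was also kept without each library and within each label, where the design cannot reach an exact p below 0.1. The causes of these shifts were not tested. Depth limits Mmp9, Timp1 and Timp4, which had fewer than 10 counts in at least 1 library.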
